A study of Mus musculus with 8 samples.

Results

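The genes described are *Nox4*, which encodes an NADPH oxidase that makes hydrogen peroxide, and 9 genes of antioxidant defence (*Nfe2l2*, *Nqo1*, *Hmox1*, *Gclc*, *Gclm*, *Txnrd1*, *Sod2*, *Sod3* and *Cat*), in primary lung fibroblasts (pFBs). They were chosen by name for their roles, and are 10 of the 54532 entries of the gene count table. RNAseq was performed on 4 WT and 4 HOMO libraries (n = 4 in each group throughout), named WT1 to WT4 and HOMO1 to HOMO4 as in their labels. All came from untreated pFBs of female mice on a C57/black background, grown in medium with serum. WT mice carried no transgene. HOMO mice were homozygous for human IGFBP5 (hIGFBP5), a secreted protein that binds insulin-like growth factors, knocked in by CRISPR/Cas9 under the ubiquitous Ef1a1 promoter. The transgene was therefore not limited to fibroblasts. Neither the age nor the number of the mice is stated in the sources used here, and the human transgene itself was not analysed here. The comparison asks how pFBs that express hIGFBP5 differ from WT pFBs in the genes that make and remove reactive oxygen species.

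Reactive oxygen species are made and removed in steps. NOX4, bound to its membrane partner p22phox (*Cyba*), passes electrons from NADPH to oxygen, is induced by TGF-beta in lung fibroblasts and is known for its part in myofibroblast differentiation. Superoxide dismutases turn superoxide into hydrogen peroxide: SOD2 in mitochondria, SOD3 in the extracellular matrix. Catalase, the glutathione peroxidases and the peroxiredoxins remove the peroxide. NRF2 (*Nfe2l2*) is the transcription factor held low by KEAP1 which, bound with a small MAF protein to the antioxidant response element, switches on *Nqo1*, *Hmox1*, *Gclc*, *Gclm* and *Txnrd1*. NRF2 is controlled mostly at the level of its protein, which these counts do not measure.

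The promoters are shown because NRF2 acts through a short DNA element, and they let a reader set that element beside the level of the genes printed. The core searched was TGACNNNGC on either strand (GCNNNGTCA when read on the opposite one), in the 250 bases before each RefSeq start site of build GRCm38.p6. The RefSeq table gave 9 such windows for 7 of the 10 genes, and 3 windows, 1 each of *Nfe2l2*, *Gclm* and *Txnrd1*, held the core. Of all 32851 windows of this length, 10.2% did. The sequences below are read 5′ to 3′ on the strand of the gene, with the core in capitals and without bases that belong to an exon of the gene. *Nox4* (chr7:87246399-87246648, plus strand) and *Nqo1* (chr8:107403207-107403455, minus strand), which were lower in HOMO, had no match here. *Nfe2l2* (chr2:75704664-75704913, minus strand), *Gclm* (chr3:122245307-122245556, plus strand) and *Txnrd1* (chr10:82858956-82859178, plus strand, 1 of 3 windows of this gene) each had 1. A match is a run of letters only, and binding of NRF2 was not measured. Bases further from the start site were not searched, so that no match here does not show that a gene lacks the element. *Hmox1*, *Gclc* and *Sod3* had no window.
Nox4: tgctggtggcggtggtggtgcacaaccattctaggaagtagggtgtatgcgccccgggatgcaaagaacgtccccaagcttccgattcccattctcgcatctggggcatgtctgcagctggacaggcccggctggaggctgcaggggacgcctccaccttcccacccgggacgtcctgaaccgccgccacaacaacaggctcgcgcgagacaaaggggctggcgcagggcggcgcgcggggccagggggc
Nqo1: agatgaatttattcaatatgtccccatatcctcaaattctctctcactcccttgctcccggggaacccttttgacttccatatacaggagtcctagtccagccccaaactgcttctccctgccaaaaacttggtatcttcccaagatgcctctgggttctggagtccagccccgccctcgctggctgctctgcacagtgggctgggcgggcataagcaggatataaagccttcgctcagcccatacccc
Nfe2l2: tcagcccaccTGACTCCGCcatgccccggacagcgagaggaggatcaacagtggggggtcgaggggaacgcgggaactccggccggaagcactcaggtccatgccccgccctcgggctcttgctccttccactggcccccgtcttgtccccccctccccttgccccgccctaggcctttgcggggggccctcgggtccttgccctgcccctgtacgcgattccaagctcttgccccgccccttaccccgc
Gclm: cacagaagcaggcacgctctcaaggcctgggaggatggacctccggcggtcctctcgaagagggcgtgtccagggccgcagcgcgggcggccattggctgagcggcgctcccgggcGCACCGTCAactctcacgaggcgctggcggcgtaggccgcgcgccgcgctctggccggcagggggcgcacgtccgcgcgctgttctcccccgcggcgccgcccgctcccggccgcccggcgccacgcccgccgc
Txnrd1: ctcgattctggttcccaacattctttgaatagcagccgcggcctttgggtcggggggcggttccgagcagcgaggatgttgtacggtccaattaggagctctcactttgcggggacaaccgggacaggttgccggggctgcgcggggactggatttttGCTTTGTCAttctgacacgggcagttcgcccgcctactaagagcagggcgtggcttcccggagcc

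Between 17236521 and 31987790 reads were counted per library, so that 3 counts corresponded to 0.0908 to 0.172 CPM (counts relative to library size, scaled with edgeR's TMM method), a floor that covers counting error only. Some libraries were near-identical. WT1 with WT2, HOMO1 with HOMO2, and HOMO3 with HOMO4 differed by a biological coefficient of variation of 4.67 to 7.54%, against 27.7 to 53.8% for all other pairs of one genotype. Their counts still differed by more than sampling noise (chi-square per degree of freedom 4.79 to 9.65, against 83.6 to 312 for the other pairs). That excess cannot tell separate mice from repeated libraries of the same culture. All were kept as separate libraries, and a comparison with them summed is given below. The study's text speaks of the HOMO libraries in terms of single mice, but neither it nor the labels say which libraries came from separate mice or cultures, and where they did not the p-values measure only the spread between these libraries. All 9 fibroblast markers examined were tested, and their summed level was 12937 to 16618 CPM in WT and 14002 to 24381 CPM in HOMO. Of these 9, edgeR called 2, *Pdgfrb* and *Vim*, lower in HOMO and 0 higher. DESeq2 called *Col1a1* and *Col1a2* higher and *Pdgfrb*, *Thy1* and *Vim* lower. Limma-voom called these same genes in the same directions, and *Col3a1* higher. Of the other cell types examined, endothelial and epithelial markers together stayed at or below 4.26 and 11.3 CPM, with *Emcn* and *Krt5* at the floor of counting. Mesothelial markers summed to 21.3, 23.3, 152 and 117 CPM in WT1 to WT4 and 128, 129, 90.1 and 97.7 CPM in HOMO1 to HOMO4. They were thus higher in WT3 and WT4 than in WT1 and WT2. Smooth muscle markers summed to 768 to 2705 CPM in WT and 198 to 1450 CPM in HOMO. The epithelial marker *Cdh1* and the mesothelial marker *Wt1* were called higher in HOMO by edgeR, which called 0 of the tested endothelial and smooth muscle markers. All 4 mesothelial markers were called higher in HOMO by limma-voom, and by edgeR without WT3 and WT4. Without WT1 and WT2, edgeR called 1 of them higher and 1 lower. The 8 macrophage markers summed to 131, 160, 1971 and 1151 CPM in WT1 to WT4 and to 58.0, 61.8, 169 and 194 CPM in HOMO1 to HOMO4. WT3 and WT4 were far above all other libraries, and none of the 8 markers was at 3 counts or fewer in every library. Between all WT and all HOMO libraries, edgeR called 0 of these 8, with 4 at an unadjusted p under 0.05. DESeq2 called 3 lower in HOMO, and limma-voom called 1 higher. EdgeR called 5 lower with the replicate number as a block, and 5 lower without WT1 and WT2. It called 1 higher without WT3, and 1 higher without WT3 and WT4.

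All 10 genes passed edgeR's filter on low counts. A gene was called a DEG when its log2 fold change was beyond 0.6 in either direction and its adjusted p was under 0.05, from edgeR's two-sided quasi-likelihood F test with Benjamini-Hochberg adjustment over 14150 genes. *Sod3*, *Nox4* and *Nqo1* were downregulated in HOMO, 0 of the 10 were upregulated and 7 were not called. Over all tested genes, 12.1% were called, 6.18% lower and 5.94% higher in HOMO. The log2 fold changes of the 10 genes had a median of −0.59, against −0.04 for all tested genes, and 8 of them lay below 0. In 4 genes (*Nox4*, *Nqo1*, *Gclm* and *Sod3*) every HOMO library lay below every WT library, and the genotypes did not overlap in 27.3% of all tested genes. The calls depended on single libraries, and so did those of all genes. Over all tested genes, 1716 were called with all libraries, 507 without HOMO1, 512 without HOMO2, 1040 without HOMO3 and 980 without HOMO4. Without HOMO1, or without HOMO2, edgeR called 0 of the 10 genes, with 4 at an unadjusted p under 0.05 in each case, and without HOMO3, or without HOMO4, *Sod3* alone was. With the near-identical libraries summed, which leaves 3 WT and 2 HOMO units, edgeR called 0 of the 10, with 4 at an unadjusted p under 0.05, and 0 of all genes, with 2057 at an unadjusted p under 0.05.

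**Figure D1:**
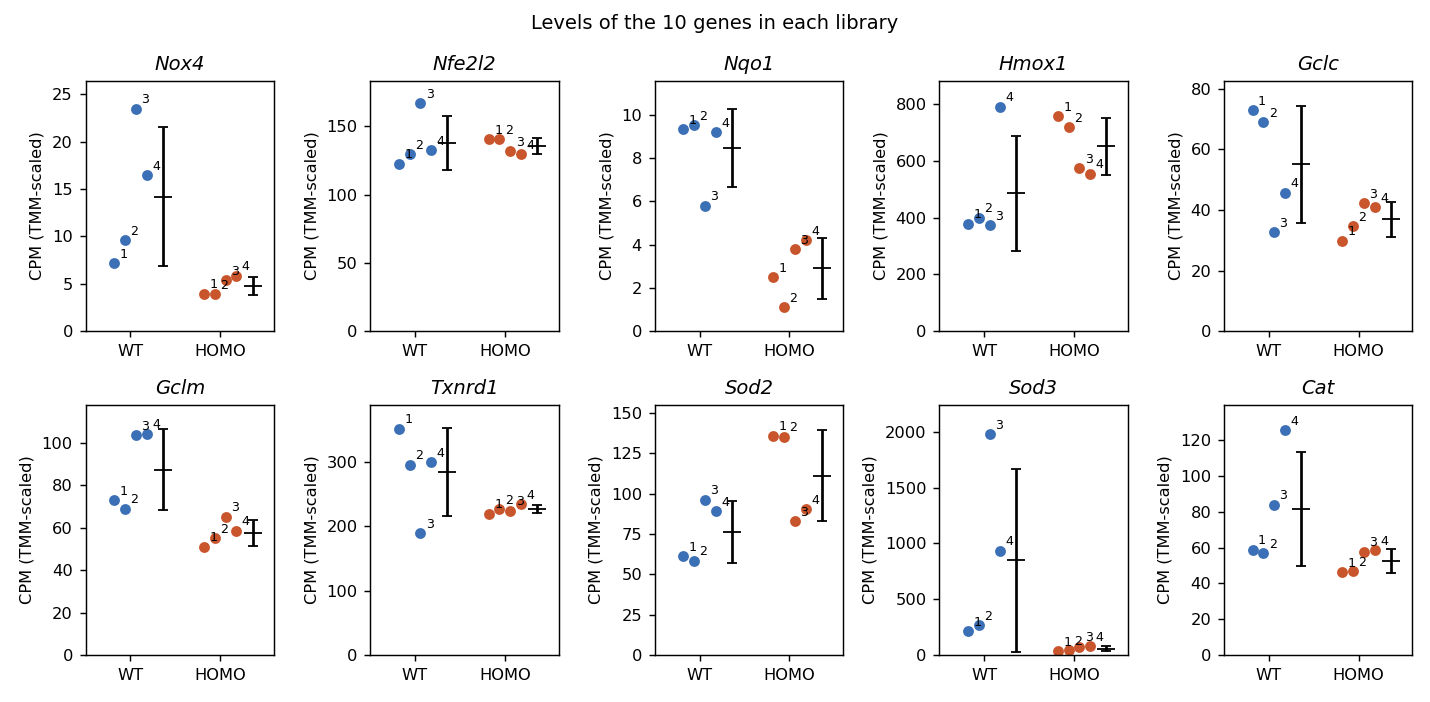
Level of each of the 10 genes in each library, in CPM on TMM-scaled library sizes on linear axes that start at 0. Each point is a library, labelled with its number, and the bars show the mean and SD over the 4 libraries of a genotype. The 4 HOMO libraries of *Nox4*, *Nqo1*, *Gclm* and *Sod3* sit below all 4 WT libraries, while the points of *Nfe2l2* overlap.

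*Nox4* (chromosome 7 from 87246096 to 87398710 in GRCm38, plus strand) had 128, 224, 409 and 425 counts in WT1 to WT4, against 89, 130, 106 and 117 in HOMO1 to HOMO4. Its level was 7.20, 9.61, 23.5 and 16.5 CPM in WT and 3.97, 3.93, 5.37 and 5.87 CPM in HOMO. The genotypes did not overlap, but the lowest WT library, WT1, was only 1.23-fold the highest HOMO library, HOMO4. The mean fell from 14.2 ± 7.33 CPM (SD, n = 4) to 4.78 ± 0.984 CPM (SD, n = 4), and the log2 fold change was −1.57 (standard error, SE, 0.38, edgeR adjusted p = 0.0318). *Nox4* varied within WT as well, with WT3 and WT4 on average at 2.37 times the level of WT1 and WT2. WT1 and WT2 averaged 8.41 CPM, and HOMO3 and HOMO4 averaged 5.62 CPM. The log2 fold change of *Nox4* was −0.82 without WT3 and WT4 (edgeR adjusted p = 0.0393) and −2.06 without WT1 and WT2 (edgeR adjusted p = 0.00740). Its call was lost without WT4 (edgeR adjusted p = 0.0526) and without any of HOMO1 to HOMO4 (edgeR adjusted p between 0.0604 and 0.106). WT3 and WT4, the libraries with the most *Nox4*, also held the most macrophage marker counts, and the part of these markers in the result was not tested. Mesothelial markers were likewise higher in WT3 and WT4 than in WT1 and WT2, and their part was not tested either. In such bulk libraries, fewer cells of a type and less RNA per cell cannot be told apart. The median of the 1045 tested genes on chromosome 7 was −0.29 on the log2 fold change scale, and in WT3 these genes stood by a median of 0.36 on the log2 CPM scale above the other WT libraries. The part of this shift in the level of *Nox4* was not tested.

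The other subunits and relatives of NADPH oxidases numbered 15, of which 9 were tested. All 9 had a log2 fold change below 0 with a median of −2.12, and edgeR called 0 of them, with 3 at an unadjusted p under 0.05. DESeq2 called 3 (*Cybb* and *Ncf1* lower, *Duoxa1* higher in HOMO) and limma-voom 2 (*Duox1* lower, *Cyba* higher). The list depended on which WT libraries were used. Without WT1 and WT2, edgeR called genes that included *Ncf1* and *Ncf4* lower, whereas without WT3 and WT4 it called *Cyba* and *Duoxa1* higher and 4 of 10 tested genes had a log2 fold change below 0. *Rac1*, the small GTPase that activates several oxidases, came closest, with 427, 415, 448 and 380 CPM in WT1 to WT4 and 318, 303, 331 and 339 CPM in HOMO1 to HOMO4. Its HOMO libraries were all lower, by a log2 fold change of −0.37 (SE 0.12, edgeR adjusted p = 0.0711). *Cyba*, whose product p22phox is the partner NOX4 needs, was at 93.7, 99.2, 324 and 186 CPM in WT and 185, 186, 139 and 142 CPM in HOMO. The genotypes overlapped for *Cyba*, and its log2 fold change was −0.11 (SE 0.38, edgeR adjusted p = 0.874).

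The subunits of the phagocyte oxidase made up the large negative median. *Ncf4*, a cytosolic subunit, was at 0.731, 0.386, 5.34 and 5.27 CPM in WT1 to WT4 and 0.357, 0.212, 0.811 and 1.30 CPM in HOMO1 to HOMO4, a log2 fold change of −2.14 (SE 0.92, edgeR adjusted p = 0.149). *Cybb*, the catalytic subunit NOX2, was at 3.54, 5.06, 37.3 and 38.1 CPM in WT and 0.847, 0.787, 7.50 and 7.77 CPM in HOMO, giving a log2 fold change of −2.32 (SE 1.04, edgeR adjusted p = 0.160). Both genes were high in WT3 and WT4, as were the macrophage markers, and overlapped between the genotypes. The part of macrophage RNA in these values was not tested. The 6 untested genes were *Nox1*, *Nox3*, *Noxa1*, *Duox2*, *Duoxa1* and *Duoxa2*. Of these, *Duoxa1*, which encodes a maturation factor of a dual oxidase, was counted 2, 3, 4 and 4 times in WT and 8, 24, 14 and 7 times in HOMO. An exact two-sided permutation test on its CPM gave p = 0.0286 before any adjustment, the smallest that 4 against 4 libraries allow. The same test gave p between 0.143 and 1.0 for the other 5 genes, which had at most 4 counts in any library.

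**Figure D2:**
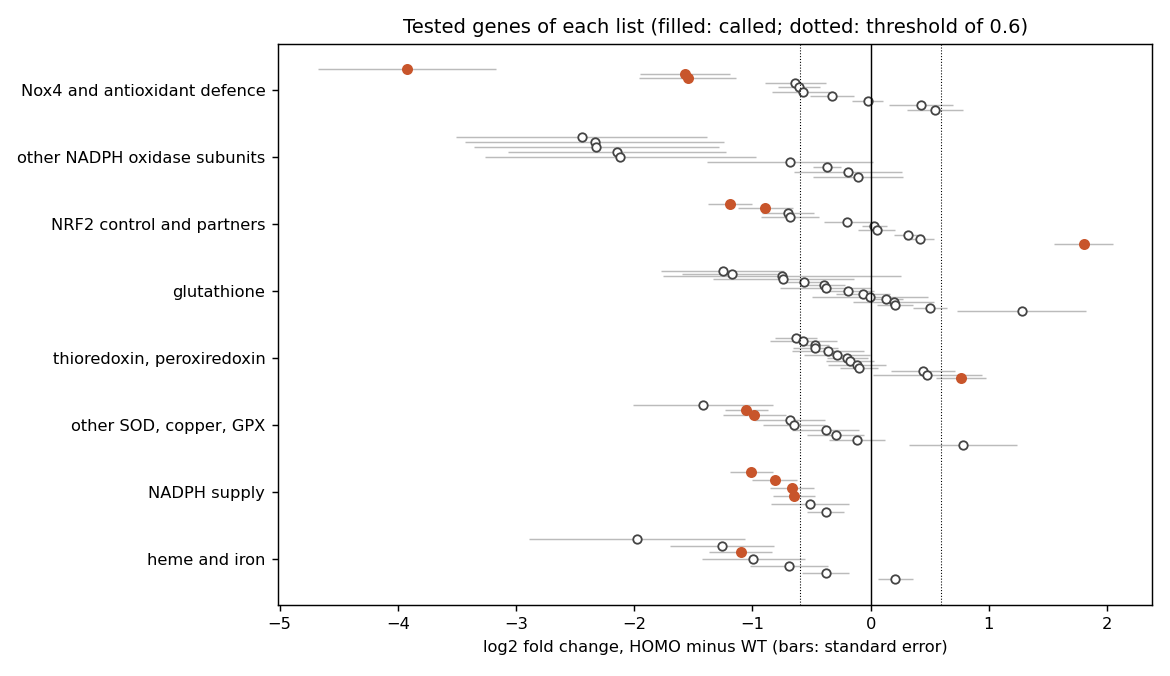
Log2 fold change (HOMO minus WT) of every tested gene, by list, with bars for the standard error. Filled points are called genes and dotted lines mark the threshold of 0.6 in each direction. The 9 tested NADPH oxidase genes all lie left of 0 and none is filled, whereas 4 of the 6 NADPH supply genes are filled.

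*Nfe2l2* (chromosome 2 from 75675513 to 75704641, minus strand) was at 122, 129, 167 and 132 CPM in WT1 to WT4 and at 140, 141, 132 and 129 CPM in HOMO1 to HOMO4. The whole HOMO range lay within the WT range. The WT mean was 138 ± 19.9 CPM (SD, n = 4) and the HOMO mean 136 ± 5.81 CPM (SD, n = 4). The log2 fold change was −0.02 (SE 0.13, edgeR adjusted p = 0.924). *Keap1*, which encodes the adaptor that sends NRF2 to degradation, had a log2 fold change of 0.05 (SE 0.16, edgeR adjusted p = 0.847). Of the 10 genes listed as controls and partners of NRF2, all 10 were tested, 1 was upregulated, 2 were downregulated and 7 were not called. Over all tested genes, 5.94% were called higher and 6.18% lower in HOMO.

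*Nfe2l3*, which encodes the related factor NRF3, was at 1.86, 2.70, 1.61 and 2.36 CPM in WT1 to WT4 and 8.47, 7.08, 7.55 and 6.77 CPM in HOMO1 to HOMO4. All HOMO libraries were above all WT libraries, and it rose by a log2 fold change of 1.80 (SE 0.25, edgeR adjusted p = 0.00479). *Mafk*, a small MAF protein that pairs with NRF2 and with its competitor BACH1, was at 99.4, 91.9, 101 and 156 CPM in WT and 46.5, 51.4, 45.4 and 53.4 CPM in HOMO. It fell by a log2 fold change of −1.19 (SE 0.19, edgeR adjusted p = 0.00758). *Maff*, another small MAF, fell with a log2 fold change of −0.89 (SE 0.23, edgeR adjusted p = 0.0388). *Maff* was at 78.1 to 86.5 CPM in WT1 to WT3, at 157 CPM in WT4 and at 50.5 to 59.4 CPM in HOMO. The calls of *Nfe2l3* and *Mafk* were made in all 8 comparisons that left out 1 library. That of *Maff* was lost without WT4 (log2 fold change −0.60, just under the threshold) and without any of HOMO1 to HOMO4 (edgeR adjusted p between 0.0888 and 0.114).

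*Nqo1* (chromosome 8 from 107388225 to 107403206, minus strand) encodes a quinone reductase and is a classical target of NRF2. It had 166, 222, 101 and 238 counts in WT1 to WT4, against 56, 37, 75 and 84 in HOMO1 to HOMO4. Its level was 9.34, 9.52, 5.80 and 9.21 CPM in WT and 2.50, 1.12, 3.80 and 4.21 CPM in HOMO. WT3 was the lowest WT library and was still 1.38-fold the highest HOMO library, HOMO4. The mean fell from 8.47 ± 1.79 CPM (SD, n = 4) to 2.91 ± 1.40 CPM (SD, n = 4), with a log2 fold change of −1.55 (SE 0.41, edgeR adjusted p = 0.0408). Among the WT libraries *Nqo1* was at its lowest in WT3, where macrophage markers were highest. Within HOMO it was higher in HOMO3 and HOMO4 than in HOMO1 and HOMO2, as were these markers. The part of macrophage RNA in its level was not tested. Its call was lost without WT1, WT2 or WT4 (edgeR adjusted p = 0.0719, 0.0793 and 0.0639) and without any of HOMO1 to HOMO4 (edgeR adjusted p between 0.0577 and 0.124). On chromosome 8 the median log2 fold change of 790 tested genes was 0.37, and its part in the level of *Nqo1* was not tested.

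*Hmox1* (chromosome 8 from 75093621 to 75100589, plus strand) encodes heme oxygenase 1. It was at 379, 400, 375 and 791 CPM in WT1 to WT4 and 757, 719, 575 and 556 CPM in HOMO1 to HOMO4. WT4 was above every HOMO library, while WT1 to WT3 were below all of them. The means were 486 ± 204 CPM (SD, n = 4) and 652 ± 101 CPM (SD, n = 4), with a log2 fold change of 0.42 (SE 0.27, edgeR adjusted p = 0.313), close to the median of its chromosome. WT4 decided this result: without WT4 the log2 fold change was 0.76 (edgeR adjusted p = 0.0232), which passes both thresholds. Of 7 other genes of heme and iron handling, all 7 were tested, 1 was downregulated, 0 were upregulated and 6 were not called. The share called over all tested genes was 12.1%. The downregulated gene was *Slc48a1*, which encodes a heme transporter of endosomes and lysosomes, at 216, 236, 454 and 435 CPM in WT and 171, 172, 140 and 143 CPM in HOMO. Its log2 fold change was −1.10 (SE 0.27, edgeR adjusted p = 0.0316), and its call was lost without WT4 (edgeR adjusted p = 0.0537) or any of HOMO1 to HOMO4 (edgeR adjusted p between 0.0787 and 0.0894). *Slc48a1* was highest in WT3 and WT4, with the macrophage markers, whose part in it was not tested.

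*Gclc* and *Gclm* encode the catalytic and the modifier subunit of glutamate-cysteine ligase, the rate-limiting enzyme of glutathione synthesis. *Gclm* (chromosome 3 from 122245557 to 122270732, plus strand) was at 73.1, 69.0, 104 and 104 CPM in WT1 to WT4 and 51.0, 55.1, 65.3 and 58.6 CPM in HOMO1 to HOMO4. The genotypes did not overlap, and the lowest WT library was 1.06-fold the highest HOMO library. Its log2 fold change of −0.61 passed the fold threshold but not that on the adjusted p (SE 0.18, edgeR adjusted p = 0.0540). DESeq2 called it (DESeq2 adjusted p = 0.0298), as did edgeR with RLE normalization (edgeR adjusted p = 0.0499) or without WT2 (edgeR adjusted p = 0.0490). Without WT3 and WT4 the log2 fold change of *Gclm* was −0.31 (edgeR adjusted p = 0.0767), without WT1 and WT2 it was −0.85 (edgeR adjusted p = 0.0122), and with limma-voom it was −0.27 (limma adjusted p = 0.0339). The 683 tested genes of chromosome 3 had a median log2 fold change of −0.23, and in WT3 they stood by a median of 0.37 on the log2 CPM scale above the other WT libraries, whose part in the level of *Gclm* was not tested. Of the exon bases of *Gclm*, 4.71% are shared with the opposite-strand gene *Gm17494*, which had 3 to 13 counts per library.

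*Gclc* (chromosome 9 from 77754535 to 77794485, plus strand) was at 72.9, 69.0, 32.6 and 45.7 CPM in WT1 to WT4 and 29.8, 34.7, 42.3 and 41.0 CPM in HOMO1 to HOMO4. WT3 lay among the HOMO libraries, so that the genotypes overlapped. Its log2 fold change was −0.58 (SE 0.26, edgeR adjusted p = 0.165), and without WT3 it was −0.76 (edgeR adjusted p = 0.0348). The subunits differed within WT: on average WT3 and WT4 were at 1.46 times the level of WT1 and WT2 for *Gclm* and at 0.552 times for *Gclc*. Of 15 other glutathione genes, all 15 were tested and edgeR called 0, with 5 at an unadjusted p under 0.05. DESeq2 called 1 and limma-voom 3. *Gsr*, which encodes glutathione reductase, was at 36.1 to 47.1 CPM in WT and 51.8 to 66.4 CPM in HOMO, giving a log2 fold change of 0.50 (SE 0.14, edgeR adjusted p = 0.0491) that was under the fold threshold. *Gsr* lies on chromosome 8. *Gss*, which encodes glutathione synthetase, was at 27.2 to 39.1 CPM in WT and 19.3 to 24.4 CPM in HOMO, giving a log2 fold change of −0.56 (SE 0.17, edgeR adjusted p = 0.0555).

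*Txnrd1* (chromosome 10 from 82833951 to 82897712, plus strand) encodes the cytosolic thioredoxin reductase. It was at 352, 296, 190 and 300 CPM in WT1 to WT4 and 220, 227, 224 and 235 CPM in HOMO1 to HOMO4. WT3 was below all HOMO libraries and the other WT libraries were above them. Its log2 fold change was −0.33 (SE 0.19, edgeR adjusted p = 0.253), and without WT3 it was −0.48 (edgeR adjusted p = 0.0167), under the fold threshold. Of 13 other thioredoxin and peroxiredoxin genes, all 13 were tested, 1 was upregulated and 12 were not called, against 12.1% called over all tested genes. The upregulated gene, *Txnrd3*, which encodes a further thioredoxin reductase, was at 7.76 to 12.6 CPM in WT and 13.6 to 19.2 CPM in HOMO, giving a log2 fold change of 0.76 (SE 0.21, edgeR adjusted p = 0.0477). This call was lost without WT1, WT2, WT3 or any of HOMO1 to HOMO4 (edgeR adjusted p between 0.0542 and 0.151).

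*Sod3* (chromosome 5 from 52363791 to 52371418, plus strand) showed the lowest log2 fold change of the 10 genes. It had 3752, 6157, 34501 and 24170 counts in WT1 to WT4, against 751, 1386, 1432 and 1513 in HOMO1 to HOMO4. Its level was 211, 264, 1980 and 936 CPM in WT and 33.5, 41.9, 72.6 and 75.8 CPM in HOMO. The genotypes did not overlap, and the lowest WT library was 2.78-fold the highest HOMO library. The mean fell from 848 ± 824 CPM (SD, n = 4) to 56.0 ± 21.4 CPM (SD, n = 4), 15.1-fold, with a log2 fold change of −3.92 (SE 0.76, edgeR adjusted p = 0.0148). The size of this change rested on WT3 and WT4, which together averaged 6.14 times the level of WT1 and WT2. Without WT3 and WT4 the log2 fold change was −2.09 (edgeR adjusted p = 0.00663). The mean of WT1 and WT2 was 3.20-fold that of HOMO3 and HOMO4, the nearest libraries. Its call was lost without HOMO1 (edgeR adjusted p = 0.0596) or HOMO2 (edgeR adjusted p = 0.0615). *Sod3* was highest in the libraries with the most macrophage marker counts, and the part of these markers was not tested. Nor was that of the mesothelial markers, which were also higher in WT3 and WT4 than in WT1 and WT2.

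*Sod2* (chromosome 17 from 13006846 to 13040063, plus strand) was at 61.2, 58.3, 96.2 and 89.2 CPM in WT1 to WT4 and 136, 135, 83.0 and 90.4 CPM in HOMO1 to HOMO4. HOMO1 and HOMO2 were above all other libraries, and HOMO3 and HOMO4 lay within the range of WT. Its log2 fold change was 0.54 (SE 0.24, edgeR adjusted p = 0.154). Without WT3 and WT4 it was 0.90 (edgeR adjusted p = 0.0309), without WT1 and WT2 0.26 (edgeR adjusted p = 0.456) and without HOMO1 and HOMO2 0.20 (edgeR adjusted p = 0.769). *Cat* (chromosome 2 from 103453849 to 103485160, minus strand), which encodes catalase, was at 58.8, 57.0, 84.0 and 125 CPM in WT and 46.1, 46.8, 57.7 and 58.4 CPM in HOMO. HOMO3 and HOMO4 overlapped with WT1 and WT2, and the log2 fold change was −0.64 (SE 0.26, edgeR adjusted p = 0.129). It passed both thresholds without WT1 and WT2 (edgeR adjusted p = 0.0198), and without WT3 and WT4 it was −0.15 (edgeR adjusted p = 0.395).

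Of 9 other genes of superoxide and peroxide removal and copper supply, all 9 were tested, 2 were downregulated, 0 were upregulated and 7 were not called. Among all tested genes, 6.18% were downregulated and 5.94% upregulated. *Gpx8*, which encodes a peroxidase of the endoplasmic reticulum, was at 121, 135, 193 and 142 CPM in WT1 to WT4 and 60.5, 63.5, 80.6 and 80.2 CPM in HOMO1 to HOMO4. It fell by a log2 fold change of −1.05 (SE 0.18, edgeR adjusted p = 0.0102) and was called in all 8 comparisons that left out 1 library. *Atox1*, whose product carries copper to the secretory pathway where SOD3 is loaded, was at 49.8, 51.6, 110 and 77.8 CPM in WT and 31.5, 31.9, 39.1 and 43.4 CPM in HOMO. Its log2 fold change was −0.98 (SE 0.27, edgeR adjusted p = 0.0437), lost without WT4 or any of HOMO1 to HOMO4 (edgeR adjusted p between 0.0702 and 0.134). *Sod1*, the cytosolic superoxide dismutase, was at 116 to 243 CPM in WT and 119 to 134 CPM in HOMO, giving a log2 fold change of −0.29 (SE 0.24, edgeR adjusted p = 0.432).

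NADPH is the electron donor of NOX4 and also of glutathione and thioredoxin reductase. Of 6 genes of NADPH supply, all 6 were tested, 4 were downregulated, 0 were upregulated and 2 were not called, where 6.18% of all tested genes were downregulated. The count was 2 with upper-quartile scaling, without the filter on low counts or with limma-voom. It was 2 without WT2, WT3, WT4 or HOMO4 and 1 without HOMO3. It was 0 without HOMO1 or HOMO2, with 4 at an unadjusted p under 0.05 in edgeR in each case. In these 2 comparisons, 507 and 512 of all genes were called, against 1716 with all libraries. *Pgd*, which encodes an NADPH-producing dehydrogenase of the pentose phosphate pathway, was at 119, 102, 157 and 151 CPM in WT1 to WT4 and 58.7, 55.1, 73.5 and 76.0 CPM in HOMO1 to HOMO4. It fell by a log2 fold change of −1.01 (SE 0.18, edgeR adjusted p = 0.0125). *Taldo1*, a transaldolase of the same pathway, had a log2 fold change of −0.81 (SE 0.19, edgeR adjusted p = 0.0288). *Idh1*, a cytosolic isocitrate dehydrogenase, had one of −0.67 (SE 0.19, edgeR adjusted p = 0.0478), and *Me1*, malic enzyme, one of −0.65 (SE 0.18, edgeR adjusted p = 0.0468). In all 4, every HOMO library was below every WT library, where the genotypes did not overlap in 27.3% of all tested genes. The call of *Pgd* was lost without HOMO1 (edgeR adjusted p = 0.0535) or HOMO2 (edgeR adjusted p = 0.0522), and that of *Taldo1* without HOMO1, HOMO2 or HOMO3 (edgeR adjusted p between 0.0553 and 0.103). Those of *Idh1* and *Me1* were each lost without any library but WT1, with an edgeR adjusted p between 0.0618 and 0.143 for *Idh1* and between 0.0355 and 0.146 for *Me1*, whose log2 fold change without WT3 was −0.48. Over all 7 lists together, 69 of 75 genes were tested, 2 were upregulated and 9 downregulated. The 11 called genes are 15.9% of those tested, near the 12.1% of all tested genes. By direction they were uneven, with 9 lower and 2 higher, where 6.18% of all tested genes were called lower and 5.94% higher.

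**Figure D3:**
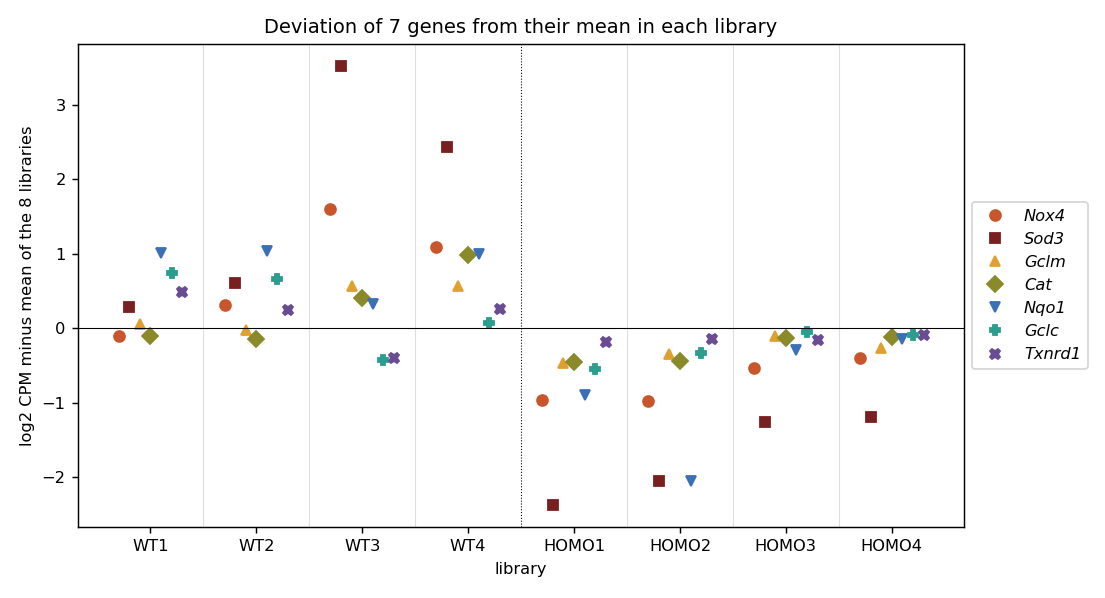
Log2 CPM of 7 of the 10 genes in each library, minus the mean of the gene over the 8 libraries, on a log2 scale. Each symbol is a gene, and the dotted line parts WT from HOMO. *Nox4*, *Sod3*, *Gclm* and *Cat* are higher in WT3 and WT4 than in WT1 and WT2, and *Gclc* is lower there.

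The 10 genes did not share 1 pattern across libraries. Over the 8 libraries, on log2 CPM with a prior count of 2, the Pearson correlation with *Nox4* was 0.993 for *Sod3*, 0.959 for *Gclm*, 0.849 for *Cat* and 0.682 for *Nqo1*. It was 0.433 for *Nfe2l2*, 0.139 for *Gclc*, 0.0535 for *Txnrd1*, −0.363 for *Sod2* and −0.423 for *Hmox1*. These points share their libraries, the difference between genotypes and the near-identical pairs, so that the values are a description only. *Nox4*, *Sod3*, *Gclm* and *Cat* were lowest in HOMO1 and HOMO2 and highest in WT3 and WT4. *Gclc* and *Txnrd1* were instead highest in WT1. Of all tested genes, the 5 most like *Nox4* were *Rer1* (correlation 0.995), *Pon2* (0.994), *Prrg2* (0.994), *Kdelr3* (0.993) and *Sod3*. *Pon2*, which encodes a paraoxonase, was at 68.1, 75.8, 133 and 119 CPM in WT1 to WT4 and 42.2, 42.9, 51.1 and 53.2 CPM in HOMO1 to HOMO4. *Kdelr3* and *Rer1* encode receptors that return proteins to the endoplasmic reticulum.

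Levels between genes were compared per kilobase of exon, taken over all annotated transcripts, which understates genes with many or long transcripts. In WT the order of mean CPM per kilobase was *Hmox1* (278), *Sod3* (227), *Txnrd1* (40.1), *Nfe2l2* (36.3), *Cat* (31.1), *Gclc* (14.6), *Gclm* (13.9), *Sod2* (7.62), *Nqo1* (5.45) and *Nox4* (1.67). The ranges over WT libraries overlapped between *Hmox1* and *Sod3*, among *Txnrd1*, *Nfe2l2* and *Cat*, between *Gclc* and *Gclm* and between *Sod2* and *Nqo1*, but not between the other neighbours. In HOMO, *Hmox1* (372) was again the highest, and *Nfe2l2* (35.7), *Txnrd1* (31.9) and *Cat* (20.0) followed with no overlap between neighbours. *Sod3* (15.0) overlapped with *Cat* and with *Sod2*, and *Sod2* (11.1), *Gclc* (9.81) and *Gclm* (9.14) overlapped with each other. *Nqo1* (1.87) and *Nox4* (0.565) were again the lowest. *Sod3* thus stood next to *Hmox1* in WT and below *Cat* in HOMO in mean level, while *Nox4* was the lowest of the 10 genes in both genotypes.

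**Figure D4:**
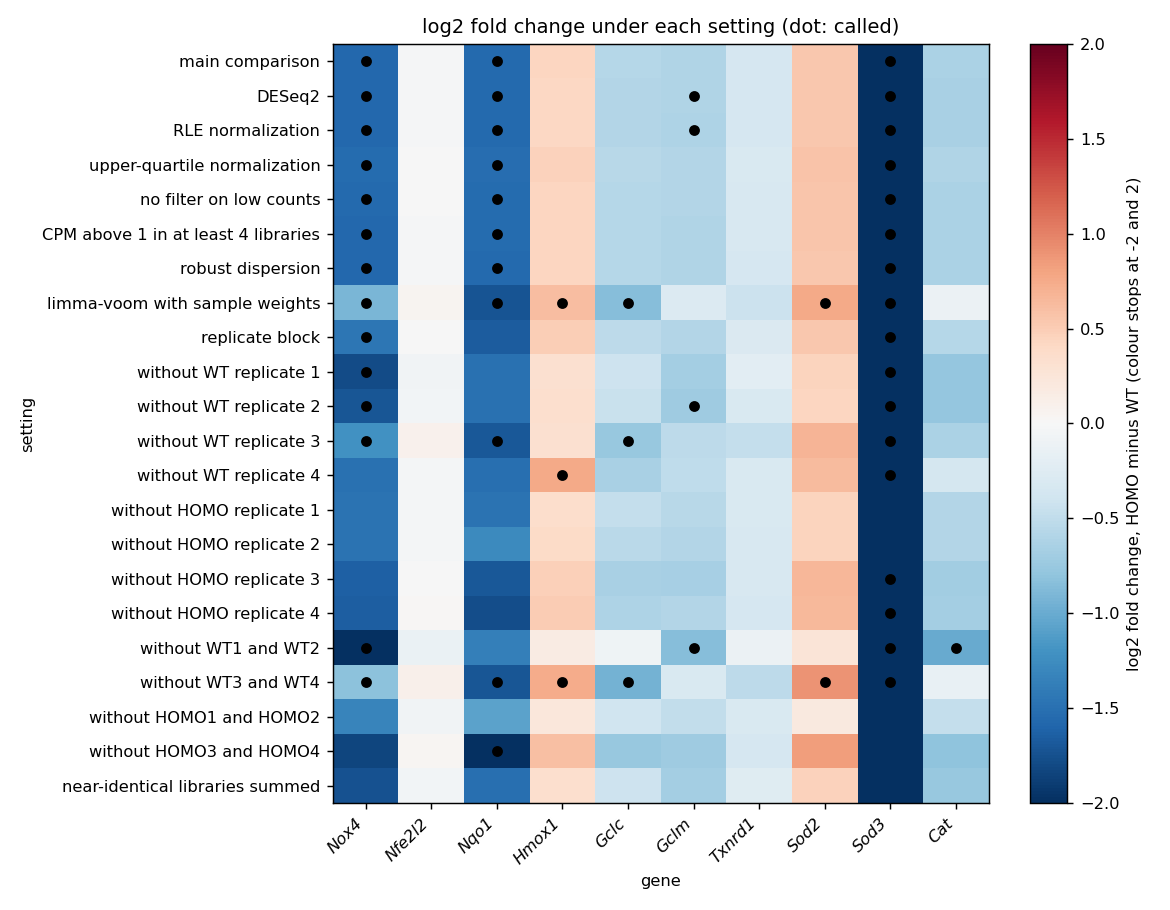
Log2 fold change (HOMO minus WT) of the 10 genes under 22 settings of the comparison, the main one included, as colour that stops at −2 and 2, with a dot where the gene was called. *Sod3* has a dot in 17 settings, *Nox4* in 14 and *Nqo1* in 11, whereas *Nfe2l2* and *Txnrd1* have none.

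Across these 22 settings, which cover other tools, normalizations and filters and left-out or summed libraries, direction held more often than the call. *Nox4*, *Nqo1*, *Gclc*, *Gclm*, *Txnrd1*, *Sod3* and *Cat* were lower in HOMO in all 22, and *Hmox1* and *Sod2* were higher in all 22. *Nfe2l2* was lower in 17 and higher in 5, with log2 fold changes between −0.14 and 0.11. The log2 fold change lay between −2.06 and −0.82 for *Nox4*, between −2.23 and −1.07 for *Nqo1* and between −4.70 and −2.09 for *Sod3*. *Sod2* was called in 2 settings, *Hmox1* and *Gclc* in 3 each, *Gclm* in 4 and *Cat* in 1.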

How the data were processed

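RNAseq counts of 4 WT and 4 HOMO libraries of pFBs were analysed. Libraries were made from poly-A RNA with a NEBNext Ultra kit and sequenced as read pairs. Reads were trimmed by the authors (fastp) and mapped to mm10 (STAR), and the authors deposited raw gene counts from featureCounts, not normalized. The submitters' processing notes also name CASAVA and DESeq2. Tool versions and the strand setting of the counting are not given in the sources used here, so that reads of overlapping antisense genes cannot be told apart. The table carries the label "outlierout", which is not explained in the sources used here. It lists 54532 entries by symbol, of which 53954 were matched to GENCODE M21 (GRCm38), and 0 columns were left unused.

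Counts were compared with R 4.3.3 and edgeR 4.0.16 (TMM, filterByExpr by genotype, quasi-likelihood F test, two-sided, genotype only), which kept 14150 genes. DEGs passed the thresholds of the study, 0.05 for the adjusted p and 0.6 for the size of the log2 fold change. The SE is the size of the log2 fold change over the root of the F statistic. CPM use TMM-scaled library sizes, and log2 CPM have a prior count of 2. Depth was 17236521 to 31987790 counts per library, and the floors cover counting error only. The SE and the SD also include the spread between libraries. Fits were also run on simulated counts of independent libraries. The simulation held no near-identical pairs, so that it does not show how the fits behave with them.

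Alternatives were DESeq2 1.42.0, limma 3.58.1 (voom with sample weights), RLE or upper-quartile scaling, dropping the filter on low counts or asking for CPM above 1 in 4 or more libraries, a robust dispersion, the replicate number as a block, no fold change threshold, each library left out, pairs of libraries left out, and near-identical libraries summed. Of the 10 genes all are named. From each of 7 pathway lists the called genes were named, at most 3 in each direction by log2 fold change, and, for a list with no call, the 2 with the lowest adjusted p. For *Nox4* the 5 genes with the highest correlation were named. *Cyba*, *Cybb*, *Ncf1*, *Rac2*, *Duox1*, *Duoxa1*, *Keap1*, *Sod1* and *Me1* were named outside this rule after their values were seen. Some list genes are not reported here. The genes, lists and tests were chosen with earlier results of these data known. Tables and figures were made in Python 3.11.15 with matplotlib 3.10.9, scipy 1.17.1, pandas 2.3.3 and numpy 2.4.6. Promoters are those of RefSeq on GRCm38.p6.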

Additional observations from a re-analysis of the deposited data

Results flagged for a closer look

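Among 48 groups of 4 libraries examined (the 10 genes and the genes named from the lists, in each genotype), 4 held a library that stood apart from the other 3 by Dixon's criterion. Chance alone gives about 1 in 20 for independent values, which near-identical libraries are not, so that the count cannot be set against chance. All 4 were WT libraries. The HOMO libraries formed near-identical pairs, in which a single library can hardly stand apart. *Nqo1* in WT3 was at 2.56 log2 CPM, and the remaining WT libraries were at 3.22 to 3.26. *Hmox1* in WT4 was at 9.63 log2 CPM against 8.55 to 8.65, and without WT4 *Hmox1* was called (log2 fold change 0.76, edgeR adjusted p = 0.0232). *Maff* in WT4 was at 7.29 log2 CPM against 6.29 to 6.44, and *Gss* in WT4 at 5.29 against 4.77 to 4.86. *Maff* lost its call without WT4, where its log2 fold change was −0.60. *Sod3* and *Nox4*, whose levels in WT3 and WT4 were far above those in WT1 and WT2, did not meet this criterion.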

How the results depend on the processing

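Of 220 pairs of a gene among the 10 and an alternative setting, 178 kept the direction and the side of the thresholds, 24 lost a call, 13 gained one and 5 changed direction. All 5 were of *Nfe2l2*, whose log2 fold change was 0.0596 with limma-voom, between −0.0762 and 0.0802 with 1 library left out (above 0 without WT3 or HOMO4), 0.11 without WT3 and WT4 and 0.0395 without HOMO3 and HOMO4, each within 2 standard errors of 0.

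Over all genes, 1716 were called, and DESeq2 called 2913, limma-voom 3573, and between 507 and 2192 were called with 1 library left out. Without WT1 and WT2 the number was 3271, without WT3 and WT4 3117, without HOMO1 and HOMO2 76, and without HOMO3 and HOMO4 913. Among the 10 genes, limma-voom called 6, the comparison without WT3 and WT4 called 6, that without HOMO1 and HOMO2 0 (3 at an unadjusted p under 0.05 in edgeR), that without HOMO3 and HOMO4 1, and 0 to 4 were called with 1 library left out. Among the genes of the 7 lists, DESeq2 called 18, no filter on low counts left 7, the comparison without WT1 and WT2 called 26, that without HOMO1 and HOMO2 0 (10 at an unadjusted p under 0.05 in edgeR), that without HOMO3 and HOMO4 5, and 3 to 11 were called with 1 library left out. With near-identical libraries summed, the number was 0 for all genes, for the 10 genes and for the lists (2057, 4 and 12 genes at an unadjusted p under 0.05 in edgeR), from 3 WT and 2 HOMO units. Other causes of these shifts were not tested.

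Over all tested genes, the deviations of same-numbered libraries from their genotype means correlated at −0.09, −0.04, 0.01 and −0.12. These values describe all genes together and cannot decide whether smaller sets of genes vary with the replicate number. Macrophage markers were higher in WT3 and WT4 than in WT1 and WT2, and higher in HOMO3 and HOMO4 than in HOMO1 and HOMO2. With the replicate number as a block, 947 genes, 2 of the 10 genes and 9 genes of the lists were called, and *Nqo1* was not (edgeR adjusted p = 0.0908). The block called NADPH oxidase subunits that included *Cybb*, *Ncf1* and *Rac2* lower in HOMO, against 0 without it, and 2 genes of NADPH supply, against 4. The fewest counts of any of the 10 genes in any library were 37, for *Nqo1* in HOMO2.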

Other observations

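Some genes of the lists that were not called in the main comparison had levels that separated either the genotypes or the WT libraries. They were named after their values were seen. *Bach1*, which encodes a repressor that competes with NRF2, was at 43.7, 44.9, 36.4 and 45.5 CPM in WT1 to WT4 and 59.4, 60.5, 55.1 and 52.5 CPM in HOMO1 to HOMO4. All HOMO libraries were above all WT libraries, with a log2 fold change of 0.42 (SE 0.12, edgeR adjusted p = 0.0575). *Srxn1*, which encodes sulfiredoxin, was at 58.8, 58.3, 64.8 and 67.1 CPM in WT and 34.3, 30.2, 48.0 and 48.5 CPM in HOMO. All its HOMO libraries were below all WT libraries, with a log2 fold change of −0.63 (SE 0.18, edgeR adjusted p = 0.0505). DESeq2 called *Srxn1* lower in HOMO. EdgeR did so with RLE normalization, with the filter of CPM above 1 in 4 or more libraries, and without HOMO3 and HOMO4.

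*Ftl1*, the light chain, was at 572, 616, 2056 and 2028 CPM in WT1 to WT4 and 566, 579, 529 and 529 CPM in HOMO1 to HOMO4, and *Fth1*, the heavy chain, at 1393, 1618, 4541 and 5470 CPM and at 1713, 1758, 1505 and 1568 CPM. For both genes the genotypes overlapped, and their log2 fold changes were −1.26 (SE 0.44, edgeR adjusted p = 0.0889) and −0.99 (SE 0.44, edgeR adjusted p = 0.155). *Ftl1* was called lower in HOMO by DESeq2, and by edgeR without WT1. Without WT1 and WT2, edgeR called both genes lower, and without WT3 and WT4 neither. Both were high in WT3 and WT4, with the macrophage markers, whose part in these levels was not tested. Ferritin genes have near-identical copies in the genome, so that their counts are uncertain.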
